A study of Rattus norvegicus with 8 samples.

Results

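The genes described here encode the core of heterotrimeric G protein signalling and the enzymes that make and break down its cyclic nucleotide messengers in rat brain. They were taken as all probe sets whose single gene symbol in the array's annotation begins with Gna, Gnb, Gng, Rgs, Adcy or Pde. The Adcyap genes, which encode a neuropeptide and its receptor, were left out with 6 probe sets. Another 2 probe sets that carry several symbols were not used. The rule found 71 probe sets for 47 genes, of 8740 probe sets and 4736 singly named genes in all. By family there were 17 probe sets for 9 G protein alpha subunit genes, 8 for 5 beta subunit genes, 8 for 5 gamma subunit genes, 10 for 9 RGS genes, 9 for 7 cyclase genes and 19 for 12 phosphodiesterase genes.

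RNA of whole rat brain was measured on 8 arrays, 1 per sample, and every rat was intubated. The samples formed 3 groups, namely 3 controls that received isoflurane, a volatile anaesthetic, for 3 min, 2 rats exposed to 2% isoflurane for 1 hr, and 3 rats exposed to 2% isoflurane for 2 hr. No group without anaesthetic was analysed here, and perfusion with cold saline is named for the controls alone, so that perfusion and exposure cannot be told apart. Strain, age and sex are not in the labels. Nor is an animal number, so p-values measure how far these samples differ, and some of that may be technical. The dissection held neurons, astrocytes and oligodendrocytes by their defining markers. All 4 neuronal, 5 astrocyte and 5 oligodendrocyte markers on the array were above the floor on all 8 arrays.

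A receptor that binds its ligand loads the G protein alpha subunit with GTP and frees it from the beta-gamma pair, and both parts then act on effectors. RGS proteins (regulators of G protein signalling) speed the hydrolysis of that GTP and so end the signal. Adenylyl cyclases make cAMP, stimulated by the s class and inhibited by the i class of alpha subunits, and phosphodiesterases break down cAMP, cGMP or both. In the brain these steps carry the responses to dopamine, adenosine, opioids, noradrenaline and acetylcholine.

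The promoters of 2 members, Rgs9 and Gnal, are shown because these genes had the widest spread within groups of all members tested, and were highest on the same arrays. Both windows run from 250 bases before to 50 bases after the annotated start in RefSeq (GRCr8), are written on the strand of the gene, and have the bases from the start site onwards in capitals. Rgs9 lies on the minus strand at chr10:94770338-94770637 and Gnal on the plus strand at chr18:62892007-62892306.
Rgs9: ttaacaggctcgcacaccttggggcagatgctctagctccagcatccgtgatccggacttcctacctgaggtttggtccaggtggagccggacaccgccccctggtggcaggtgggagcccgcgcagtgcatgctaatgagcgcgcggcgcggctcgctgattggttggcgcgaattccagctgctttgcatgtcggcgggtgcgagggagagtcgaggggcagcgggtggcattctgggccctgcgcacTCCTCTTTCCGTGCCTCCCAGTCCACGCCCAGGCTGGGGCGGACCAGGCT
Gnal: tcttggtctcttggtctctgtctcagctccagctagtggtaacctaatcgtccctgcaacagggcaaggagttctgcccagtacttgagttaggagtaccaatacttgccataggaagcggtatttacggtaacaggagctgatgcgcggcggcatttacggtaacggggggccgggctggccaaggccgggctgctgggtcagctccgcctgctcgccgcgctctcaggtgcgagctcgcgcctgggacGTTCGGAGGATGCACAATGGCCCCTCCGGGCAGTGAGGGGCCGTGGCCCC
The Rgs9 window was 66.3% G or C with 24 CG dinucleotides, and the Gnal window 62.3% with 21. Neither window held the full cAMP response element TGACGTCA, its shorter core TGACG or the TATA box TATAAA on either strand. RefSeq windows were matched for 34 of the 47 genes, 45 windows in all. The full element, which contains the core, was held by 1 of these 45 windows, that of Gnao1 (2.22%, against 1.83% of all 33469 windows). The core was held by 24.4% of the member windows and 21.2% of all windows, and the TATA box by 8.89% and 14.2%. A match is a description of letters, not a bound site.

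Values are signal intensities as deposited, with changes given on the log2 scale after a floor at an intensity of 9.1 (the 20th percentile of all values, log2 3.19). Testing needed a value over the floor on 2 or more of the 8 arrays. Of the 71 member probe sets 63 were tested, for 42 genes, and 49 were above the floor on all 8 arrays. The 8 that were not tested were probe sets of Gnb3, Rgs1, Rgs18, Adcy4, Adcy5, Pde4d, Pde5a and Pde7a, of which 5 were at or under the floor on every array. Rgs1 and Rgs18, RGS genes known from lymphoid cells and platelets, read at most 6.6 and 2.5 on any array. Adcy5, Pde4d and Pde5a had other probe sets that were tested.

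The arrays themselves differed in ways that cut across the groups. The top value of an array was 23009.4 to 37711.8 on 3 arrays (control replicate 3, 1 hr replicate 1 and 2 hr replicate 3), and 3504.2 to 12444.6 on the other 5. The 5S ribosomal RNA control read low, at 12.9 to 23.7, on control replicates 1 and 2 and 2 hr replicate 1, and 70.4 to 141.7 elsewhere. The median member lay 0.28 above its mean over the 8 arrays on 2 hr replicate 2, and between -0.13 and 0.05 of it on the other 7. That array also had the highest summed intensity of the vascular smooth muscle (1422, against 613.8 to 852.3 on the others), microglia and leukocyte (447.7, against 147.8 to 327.2) and pituitary markers (922.9, against 238 to 535.6). It had the lowest sums of the astrocyte (4013, against 8661 to 12890) and oligodendrocyte markers (5190, against 6757 to 10780). Other arrays stood apart too. The choroid plexus markers summed to 3502 on 1 hr replicate 2, mostly through Ttr (2964.6), against 415.1 to 908.9 on the others. The neuronal markers had their lowest sum on control replicate 3, at 906.2, against 1214 to 2838. The part of these array differences in the results was not tested.

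After 2 hr of isoflurane no member passed the test. The count with an adjusted p under 0.05 in limma was 0 of 63 (Benjamini-Hochberg over 7770 probe sets), where the background was 0% of the 7770. At an unadjusted p under 0.05 there were 2, both higher, or 3.17% of the members against a background of 1.79%. The groups did not overlap for 2 members, also 3.17%, against a background of 5.44%. Of these 1 was higher (background 2.9%) and 1 lower (background 2.55%). Log2 differences between the 2 hr and control means ran from -0.77 to 0.89 with a median of 0.14, and the median over all probe sets tested was 0.02. There were 41 values above 0 and 22 below 0, or 65.1% above, against 52.3% of all probe sets tested. The median was 0.02, with 33 above and 30 below 0, when 2 hr replicate 2 was left out. Standard errors ran from 0.211 to 1.37 with a median of 0.40, which limits the changes these arrays could detect.

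After 1 hr no member passed either, 0 of 63 against a background of 0% (limma). At an unadjusted p under 0.05 there were 3, or 4.76%, against a background of 2.68%. These included Adcy10, whose controls were all at the floor, so that it could not have been lower. The 2 arrays of the 1 hr group did not overlap the 3 controls for 7 members, or 11.1%, against a background of 12.7%. Of these 5 were higher (background 7.54%) and 2 lower (background 5.11%). The log2 differences ran from -1.23 to 1.39 with a median of 0.04, against 0.05 over all probe sets. For any exposure against control the count was 0 of 63 with a background of 0%, and at an unadjusted p under 0.05 it was 1, or 1.59%, against a background of 2.21%. For 2 hr against 1 hr the count was again 0 of 63 with a background of 0%, and 2 at an unadjusted p under 0.05, or 3.17%, against a background of 2.77%. The groups of that comparison did not overlap for 7 members, or 11.1%, against a background of 13.8%, with 4 higher (background 5.98%) and 3 lower (background 7.82%). The comparisons with control share the 3 control arrays, so their values are not independent.

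**Figure D1:**
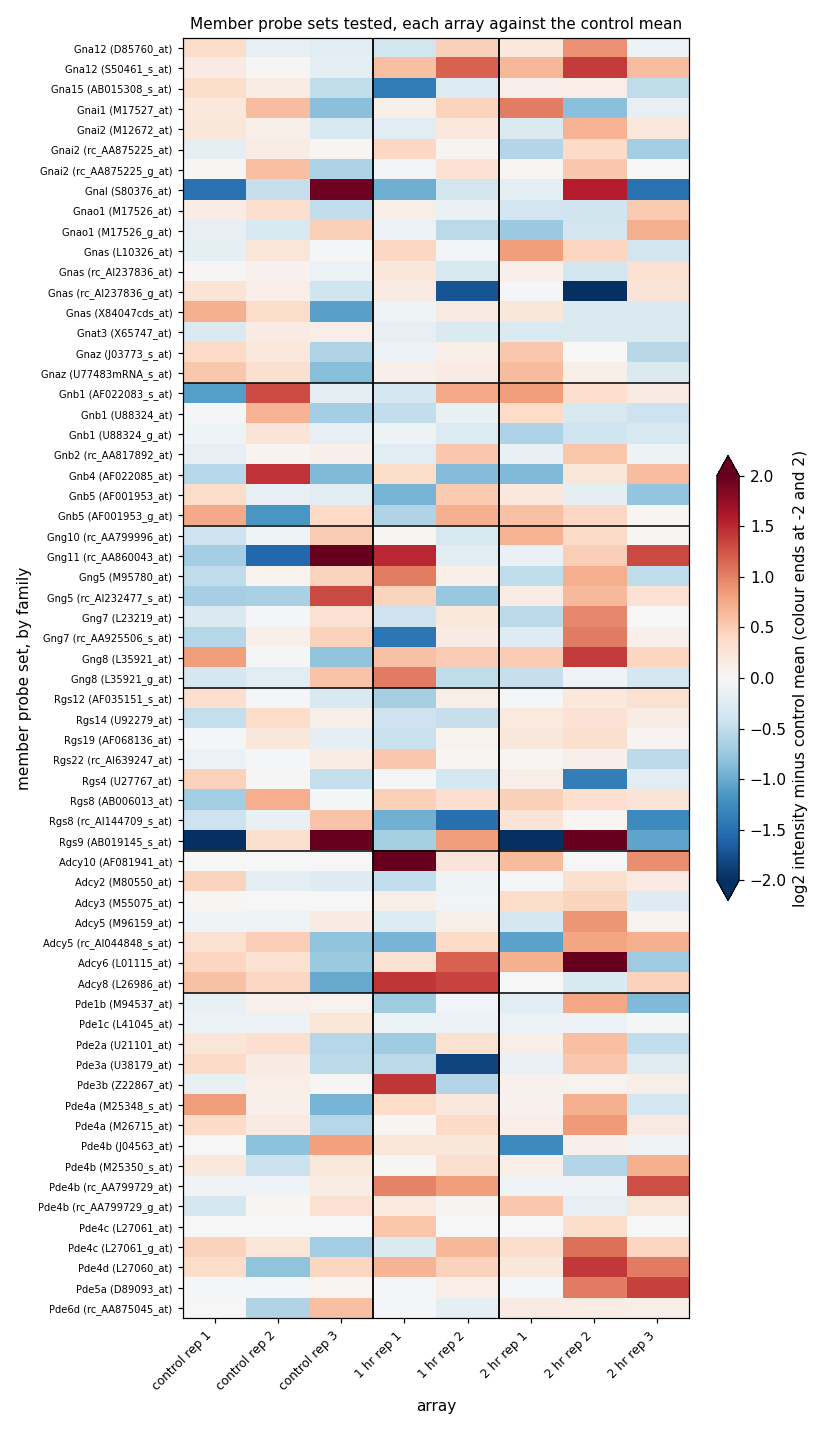
Heat map of the 63 member probe sets tested (rows, by family) on the 8 arrays (columns), coloured by log2 intensity minus the mean of the 3 control arrays, with colours ending at -2 and 2. Rgs9 and Gnal differ most between arrays of the same group, and on 2 hr replicate 2 the median member lay 0.28 above its mean over the 8 arrays.

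The alpha subunits set which effector a receptor reaches. Of their 17 probe sets, all tested, 8 were above and 9 below the control mean after 2 hr, with a median log2 difference of -0.01. Gna12, an alpha subunit of a class of its own beside the s, i and q classes, had the smallest unadjusted p of the family. Its probe set S50461_s_at read 48.9, 44.3 and 37.7 on the control arrays, 65.8 and 98.6 after 1 hr and 69, 114.7 and 66.3 after 2 hr. All 5 exposed arrays lay above all 3 controls. The log2 intensity averaged 6.33 ± 0.44 (SD, n = 3) after 2 hr against 5.44 ± 0.19 (SD, n = 3) in controls, a difference of 0.89 (SE 0.373, limma's unadjusted p = 0.0382, adjusted p = 1). It was 0.64 without 2 hr replicate 2 and 0.54 without the 2 arrays of highest summed striatal markers (2 hr replicate 2 and control replicate 3), an alternative chosen after seeing the data. After 1 hr it averaged 6.33 ± 0.41 (SD, n = 2), also 0.89 above controls (SE 0.416, limma's adjusted p = 1).

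This was the only member of the 63 with no overlap between the 5 exposed arrays and the controls, or 1.59%, against a background of 1.93% (0.927% higher). For any exposure the difference was 0.89 (SE 0.336, limma's unadjusted p = 0.0247, adjusted p = 0.999). It was 0.81 within the 3 arrays of highest top value and 1.01 within the other 5. Within the arrays of low 5S reading it was 0.57, and 1.15 within the others. The values of 0.81 and 1.15 each rest on 1 control, replicate 3. The low 5S arrays held no 1 hr array, so 0.57 is 2 hr replicate 1 against control replicates 1 and 2. The second Gna12 probe set, D85760_at, did not repeat the separation. It read 250.9, 173.4 and 168.9 in controls, 151 and 270.5 after 1 hr and 223.9, 364.4 and 181.3 after 2 hr, with log2 differences of 0.06 at 1 hr and 0.34 at 2 hr. The groups overlapped at both times.

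Gnas, the stimulatory subunit that activates adenylyl cyclase, was read by 4 probe sets with log2 differences at 2 hr of 0.30, 0.01, -0.77 and -0.12. The probe set rc_AI237836_at was the steadiest of these, at 2573.1, 2662.3 and 2335.5 in controls, 2954.7 and 2018 after 1 hr and 2695.7, 1945.4 and 3116.3 after 2 hr. The value of -0.77 came from rc_AI237836_g_at, which read 1277.7 on 2 hr replicate 2 and 2256.7 on 1 hr replicate 2, while the remaining 6 arrays read 5626.6 to 9052.1. The other 3 probe sets had no drop of that size there, though rc_AI237836_at was also lowest on those 2 arrays. Gnao1, the main alpha subunit of neurons, had log2 differences of -0.09 and -0.13 at 2 hr, and Gnai2, an inhibitor of adenylyl cyclase, of 0.21, -0.30 and 0.19. For Gnai1 the value was 0.01, and for Gnaz, which acts like the inhibitory class but resists pertussis toxin, -0.01 and 0.15.

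Gna15, a q class subunit best known from blood cells, had the lowest value at 1 hr among the alpha subunits, -0.84 (SE 0.458, limma's adjusted p = 1). It read 36.1 and 78.8 after 1 hr against 121.2, 105.5 and 67.5 in controls, and the groups overlapped. The value was -0.27 without 1 hr replicate 1 and -1.40 without 1 hr replicate 2. Gnat3, the gustducin alpha subunit of taste cells, was at the floor on every 2 hr array and on 1 of the 3 controls. The other 2 controls read 12.4 and 12.1. At 2 hr the log2 difference was -0.29, which did not pass (limma's adjusted p = 1). Its size is set by the floor, since both groups hold values at it.

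Beta and gamma subunits act as a fixed pair that anchors the alpha subunit and opens channels of its own. Of the 7 beta probe sets tested 3 were above and 4 below the control mean after 2 hr, with a median of -0.01. Gnb1, a widely used beta subunit, was read by 3 probe sets that did not have the same sign. U88324_g_at read 983.4, 1246.9 and 930.6 in controls, 969.5 and 869.6 after 1 hr and 679.3, 791.6 and 837.8 after 2 hr. The 3 arrays of the 2 hr group lay below all controls and below both 1 hr arrays, at a log2 difference from control of -0.45 (SE 0.269, limma's adjusted p = 1). The other Gnb1 probe sets, U88324_at and AF022083_s_at, had differences of -0.12 and 0.46, with overlapping groups. Gnb2 had a difference of 0.10, Gnb4 of -0.01 and Gnb5, the partner of the R7 class of RGS proteins, of -0.25 and 0.34. At 1 hr the Gnb2 value was 0.17 (SE 0.361) and that of Gnb1 (U88324_at) -0.32 (SE 0.431).

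Of the 8 gamma probe sets 6 were above and 2 below the control mean after 2 hr (background 52.3% above), with a median of 0.33. Without 2 hr replicate 2 it was 4 above and 4 below, with a median of 0.07. Gng8, a gamma subunit of olfactory and vomeronasal neurons, was read by 2 probe sets. L35921_at had a log2 difference of 0.78 (SE 0.49, limma's adjusted p = 1) and L35921_g_at of -0.29 (SE 0.445). Without control replicate 3 these were 0.37 and 0, and L35921_at was 0.47 without 2 hr replicate 2, 1.2 without control replicate 1 and 0.07 without the 2 arrays of highest striatal marker sum. Gng10 had a value of 0.37 and Gng11 of 0.56, and Gng5 had 0.36 on its brighter probe set and -0.10 on M95780_at. Gng7, which pairs with Gnal in the striatum, had 0.14 and 0.30. At 1 hr M95780_at of Gng5 had a value of 0.57 (SE 0.501), which was 0.12 without 1 hr replicate 1, 1.02 without 1 hr replicate 2 and 0.31 without control replicate 1. At the same time rc_AA925506_s_at of Gng7 had one of -0.64 (SE 0.557). Neither passed the test.

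RGS genes were near evenly split, with 4 of 8 probe sets above and 4 below the control mean after 2 hr and a median of 0.01. Rgs4, a neuronal R4 class member, read 379.7, 277.6 and 196.8 in controls, 270.9 and 215.3 after 1 hr and 299.7, 105.7 and 236.9 after 2 hr. Its log2 difference at 2 hr was -0.49 (SE 0.409, limma's adjusted p = 1), and -0.04 without 2 hr replicate 2. Rgs8, a member of the same class known from cerebellar Purkinje cells, had 2 probe sets. AB006013_at had values of 0.40 at 1 hr and 0.35 at 2 hr, which were 0.05 and 0.01 without control replicate 1, and 0.77 and 0.72 without control replicate 2.

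The other Rgs8 probe set, rc_AI144709_s_at, read 13.4 and 7.4 after 1 hr against 19.4, 23.4 and 38.2 in controls. The groups did not overlap, at a log2 difference of -1.23 (SE 0.548, limma's unadjusted p = 0.0497, adjusted p = 1). Since 1 hr replicate 2 was under the floor, the size depends on it, with -0.69 after adding a pseudocount of 16 and -0.15 under a floor raised to the 40th percentile of all values. The 2 hr arrays read 31, 26.5 and 10.8 and overlapped both other groups. Rgs14, known from hippocampal area CA2, read 174.6 and 170.3 after 1 hr and 267.5, 287 and 259.2 after 2 hr, with controls between 167.4 and 300.8. The 2 hr arrays lay above the 1 hr arrays, at a difference of 0.65 (SE 0.303, limma's adjusted p = 1). Rgs12, Rgs19 and Rgs22 had differences from control of 0.16, 0.20 and -0.13 at 2 hr.

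**Figure D2:**
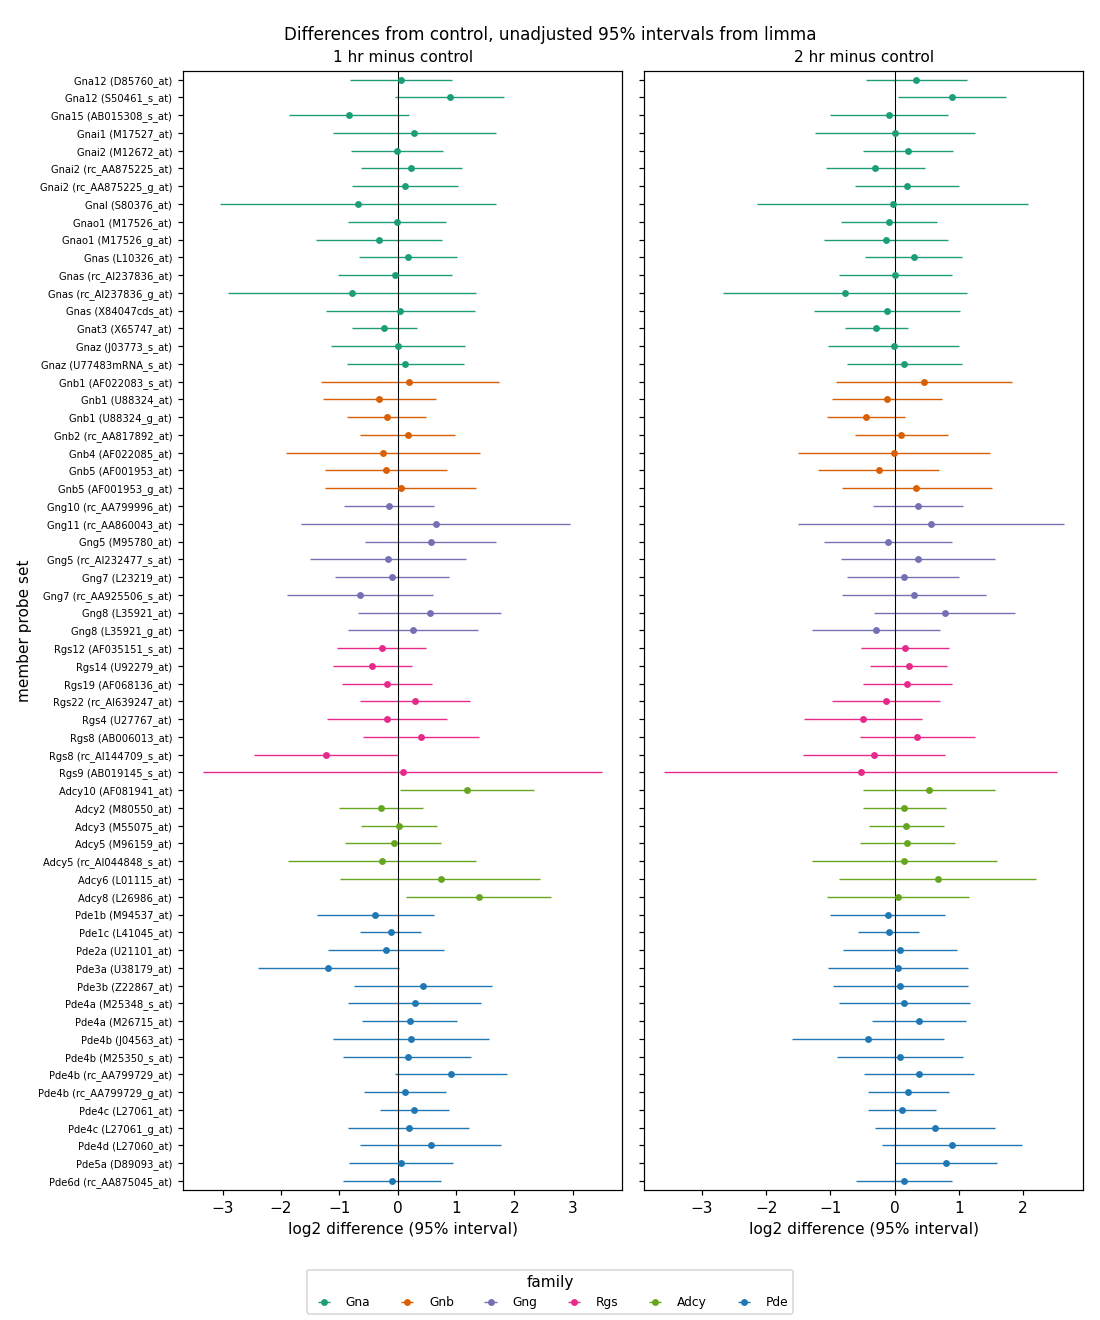
Log2 differences from control of the 63 member probe sets tested, at 1 hr (left) and 2 hr (right), with unadjusted 95% intervals from limma, coloured by family. Most intervals span 0, and those of Rgs9, Gnal and Gng11 are the widest.

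All 7 cyclase probe sets tested, for 6 genes, had a 2 hr mean above the control mean, as had 52.3% of all probe sets tested. For Adcy10 every control was at the floor, so its 2 hr mean could not have been lower. The differences of the 7 probe sets ran from 0.05 to 0.67 on the log2 scale with a median of 0.18. Without 2 hr replicate 2 the count above was 5 of 7 with a median of 0.06, and none passed in either case. Adcy8, a cyclase stimulated by calcium and calmodulin, read 27.4, 24.4 and 8.7 in controls, 49.1 and 46.4 after 1 hr and 18.2, 14.8 and 25.1 after 2 hr. The 1 hr arrays lay above all others. The log2 intensity averaged 5.58 ± 0.06 (SD, n = 2) after 1 hr against 4.19 ± 0.87 (SD, n = 3) in controls, a difference of 1.39 (SE 0.554, limma's unadjusted p = 0.0321, adjusted p = 1). Without control replicate 3, which read at the floor, it was 0.88. For 2 hr against 1 hr the difference was -1.34 (SE 0.554, limma's unadjusted p = 0.0375, adjusted p = 1).

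Adcy10, the soluble cyclase regulated by bicarbonate, was at or under the floor on all 3 controls. It read 39.4 and 10.9 after 1 hr and 14.2, 5.9 and 17.4 after 2 hr. It was at least 2.28-fold higher after 1 hr (limma's unadjusted p = 0.0444, adjusted p = 1), with most of the difference on 1 hr replicate 1. Adcy10 entered the tests through exposed arrays alone and could only come out higher. Its spread in controls is set by the floor, so nothing is drawn from this p. At 2 hr the log2 difference was 0.53 (SE 0.459). Adcy6, a cyclase inhibited by calcium, had differences of 0.74 at 1 hr and 0.67 at 2 hr with standard errors of 0.765 and 0.684, and read 85 on 2 hr replicate 2 against 12.7 to 47.7 elsewhere. Adcy2 had values of -0.29 at 1 hr and 0.15 at 2 hr. Adcy3, which serves olfactory transduction, read 217.6, 214.5 and 215.7 in controls, 233.3 and 208 after 1 hr and 278.8, 293.4 and 180.5 after 2 hr, a difference of 0.18 at 2 hr.

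Phosphodiesterase probe sets, 16 tested for 11 genes, were above the control mean after 2 hr in 13 cases, against a background of 52.3%. Pde4c (L27061_at) had every control at the floor and could not have been lower. Pde5a (D89093_at), Pde4b (rc_AA799729_at) and Pde1c had 2 of the 3 controls at the floor, and of these Pde1c was lower. The median log2 difference of the 16 was 0.13. Without 2 hr replicate 2 there were 9 above and 7 below, with a median of 0.12. Pde5a, an enzyme specific for cGMP, had the smallest unadjusted p of the family at 2 hr. Its probe set D89093_at read 1.8, 4.4 and 9.6 in controls, 6.5 and 10.2 after 1 hr and 5.4, 19.2 and 23.9 after 2 hr. Of the 3 arrays of the 2 hr group 2 lay above every other array, and the third was at the floor. The difference of 0.80 (SE 0.356, limma's unadjusted p = 0.0498, adjusted p = 1) rests on values at the floor on 2 of the 3 controls, and was 0.51 without 2 hr replicate 3. Within the arrays of low 5S reading (1 against 2 controls) every reading was under the floor, so the difference of 0 there is set by the floor. Within the other arrays it was 1.16. The other Pde5a probe set was not tested.

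The cAMP-specific Pde4 genes, targets of rolipram, were read by 10 probe sets, of which 9 were tested. Pde4d (L27060_at) read 20.6, 5.1 and 21.5 in controls, 25.5 and 21.8 after 1 hr and 18.6, 42.5 and 32.7 after 2 hr. Both 1 hr arrays lay above all controls, at a log2 difference of 0.57 (SE 0.542, limma's adjusted p = 1). At 2 hr the difference was 0.89 (SE 0.484, limma's adjusted p = 1), the highest of the family, and the groups overlapped. Control replicate 2 was under the floor, so the size of both differences depends on it. The second Pde4d probe set was not tested. Pde4b was read by 4 probe sets with differences at 2 hr of -0.41, 0.08, 0.38 and 0.21. At 1 hr its dimmest probe set, rc_AA799729_at, read 19.1 and 17.3 against 4.9, 4.8 and 10.7 in controls, at a log2 difference of 0.92 (SE 0.429, limma's adjusted p = 1). With 2 of the 3 controls under the floor its size is set by the floor, and it was 1.53 with the floor at the 5th percentile and 0.59 with a pseudocount of 16. The probe set rc_AA799729_g_at had a difference of 0.13. Pde4a had values of 0.15 and 0.38 and Pde4c of 0.12 and 0.63 at 2 hr.

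Pde3a, a cAMP phosphodiesterase inhibited by cGMP and known from heart, platelets and vascular smooth muscle, had the lowest phosphodiesterase value at 1 hr. It read 37.4 and 15.2 after 1 hr against 70.7, 60.7 and 37.5 in controls, so that the groups were parted by 0.1 intensity units. The difference was -1.19 (SE 0.542, limma's unadjusted p = 0.0539, adjusted p = 1), and -0.54 without 1 hr replicate 2 and -1.84 without 1 hr replicate 1. The 2 hr arrays read 49.4, 78.6 and 45.9, with a difference from 1 hr of 1.24 (SE 0.542, limma's unadjusted p = 0.0463, adjusted p = 1). The summed vascular smooth muscle markers read 733.9 and 782.3 after 1 hr, 712.5, 1422 and 671.5 after 2 hr and 635, 852.3 and 613.8 in controls, and their part was not tested. Pde2a, a dual enzyme stimulated by cGMP, and Pde6d, a carrier of prenylated proteins that has no catalytic activity, had differences of 0.08 and 0.15 at 2 hr. Pde1c and Pde3b had values of -0.09 and 0.09.

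**Figure D3:**
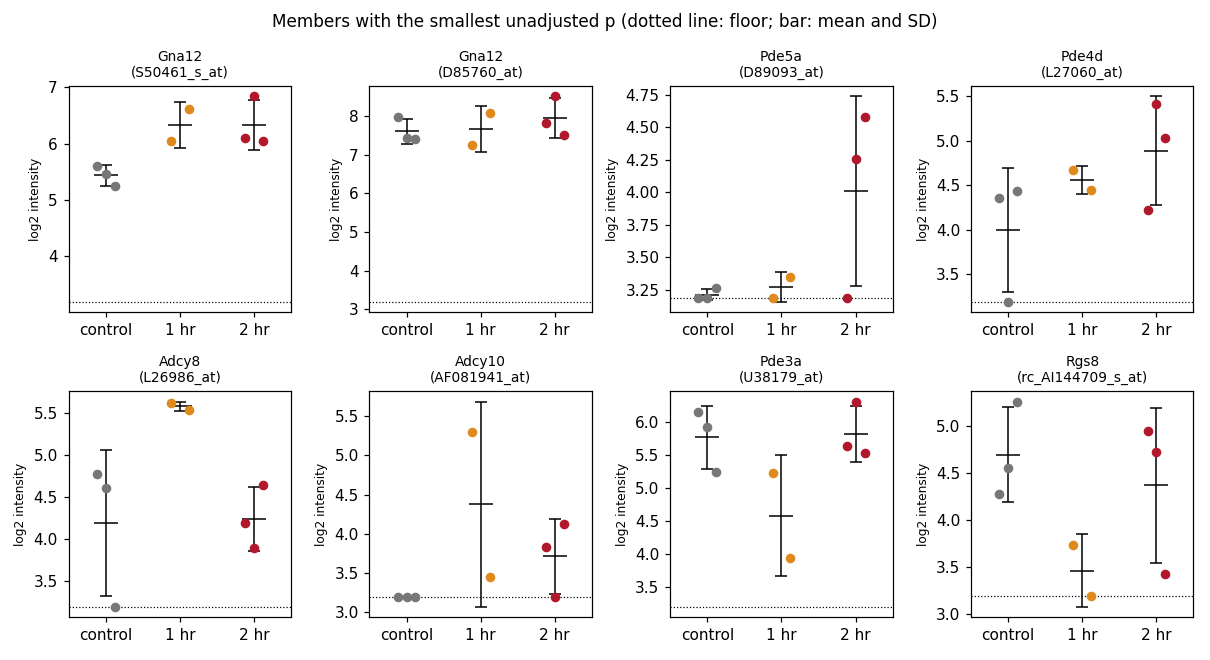
Log2 intensity of 8 member probe sets by group, with a point per array, a bar for the mean and SD, and a dotted line at the floor of 3.19. Gna12 (S50461_s_at) is the panel in which all 5 exposed arrays lie above the 3 controls, and its second probe set, D85760_at, overlaps.

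Different probe sets of a gene gave a further reading of the error. Of the 15 genes with at least 2 probe sets tested, 6 had the same sign on all of them at 2 hr and 9 did not, and at 1 hr it was 9 and 6. The median spread between the probe sets of a gene was 0.51 at 2 hr and 0.32 at 1 hr on the log2 scale. The median size of a single difference, over all members tested, was 0.20 at 2 hr and 0.23 at 1 hr. A spread between probe sets tends to exceed the size of a single difference from error alone, so nothing is drawn from their order.

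The members varied more between arrays of a group than between groups, as 8 arrays in 3 groups would also give with no effect. The 3 group means accounted for a median of 14.7% of a member's variation over the 8 arrays, against 18.2% over all probe sets tested. The median SD within groups was 0.55 for the members and 0.51 for all probe sets. Rgs9, an R7 class RGS protein of the striatum and retina, had an SD within groups of 2.25, the 4th highest of 7770 probe sets. It read 7.9, 70.6 and 284.6 in controls, 36.1 and 100.9 after 1 hr and 5.7, 245.2 and 27.2 after 2 hr. The log2 difference at 2 hr was -0.53 with an unadjusted 95% interval of -3.59 to 2.53 in limma, so a change of several fold in either direction was not detectable. Gnal, the alpha subunit that couples dopamine and adenosine receptors to adenylyl cyclase in the striatum, was also far apart within groups (SD 1.5). It read 2.8, 18.8 and 99.3 in controls, 13 and 19.9 after 1 hr and 22.6, 76.9 and 6.2 after 2 hr.

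Both genes were highest on control replicate 3 and 2 hr replicate 2. Other members known to be enriched in the striatum were also highest on 2 hr replicate 2. Adcy5, the main striatal cyclase (M96159_at), read 398.9 on that array and 243 on control replicate 3, against 171 to 235.4 on the other 6. Gng7 (L23219_at) read 1041.7 and 661.3 against 372.4 to 615.3. Pde1b, a calmodulin-dependent phosphodiesterase, read 508.5 on 2 hr replicate 2 and 314 on control replicate 3, against 160.9 to 314.1. A second Gng7 probe set (rc_AA925506_s_at) was also highest on these 2 arrays, at 243 and 161.8 against 43.5 to 131.3. The second Adcy5 probe set tested, rc_AI044848_s_at, was not, with 63 and 20.9 against 17.5 to 60.2.

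The markers of striatal projection neurons were high on the same arrays. Of 6 listed markers 5 were on the array, and their summed intensity reached 1883 on 2 hr replicate 2 and 4340 on control replicate 3, while the other 6 arrays had 479.5 to 1163. Penk, the enkephalin precursor, read 2011 on control replicate 3 and 759.1 on 2 hr replicate 2, against 172.2 to 412.2. Adora2a, an adenosine receptor of these neurons, read 537 and 362.8 against 109.1 to 175.4, and Drd1, the dopamine D1 receptor, 193.3 and 121 against 20.4 to 51.6. Tac1 read 1584.3 and 515.8, but 520.7 on 1 hr replicate 1, and Drd2 was high on 2 hr replicate 2 alone, at 124.1 against 8.7 to 27.5. In bulk tissue a different share of striatal tissue or cells and a different amount of RNA per cell cannot be told apart. The part of the striatal markers in the member values was not tested. These 5 striatal members were grouped after earlier results of these data were known.

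Of these arrays 1 was a control and 1 a 2 hr array. Without both arrays 0 of 63 members passed in any of the 4 comparisons. The median log2 difference of the members at 2 hr was then -0.07, with 27 above and 36 below 0, and the cyclases stood at 2 above and 5 below. Rgs9 then had a difference of -0.69 and Gnal of 0.13.

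**Figure D4:**
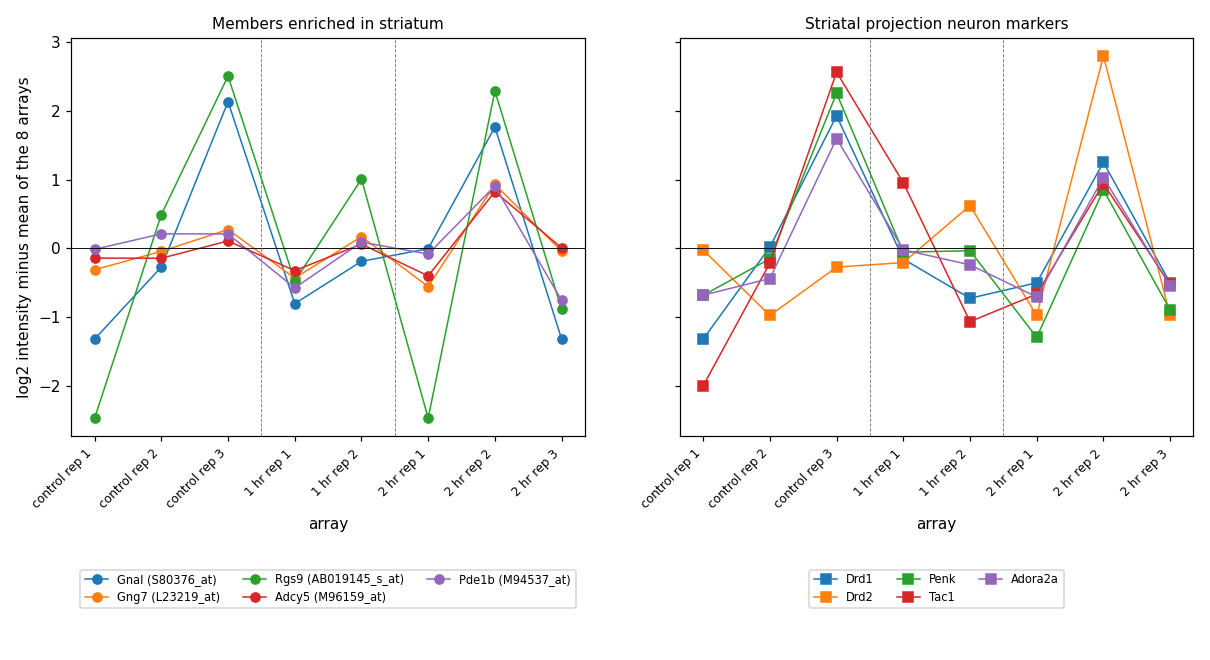
Log2 intensity minus the mean of the 8 arrays, by array, for 5 members known from the striatum (left) and the 5 striatal projection neuron markers on the array (right). Rgs9 and Gnal peak on control replicate 3 and 2 hr replicate 2, as do Penk, Adora2a and Drd1.

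Other genes of the same pathways, outside the 6 families, were read from a list of 48. It covered protein kinases A and G, their inhibitors and anchors, cAMP-activated exchange factors and transcription factors, guanylyl cyclases and natriuretic peptide receptors. It also held phospholipase C beta, inositol trisphosphate receptors, receptor kinases, arrestins and other regulators of G proteins or phosphatases. Of the 41 on the array 39 were tested, with 1 probe set per gene, and 0 passed in any of the 4 comparisons in limma. At 2 hr 16 were above and 23 below the control mean, with a median of -0.04. At 1 hr 22 were above and 17 below, with a median of 0.17. Of all probe sets tested 52.3% were above at 2 hr and 55.8% at 1 hr. At an unadjusted p under 0.05 there was 1 at 2 hr, or 2.56%, against 1.79% of all probe sets tested. At 1 hr there were 2, or 5.13%, against 2.68%. Itpr2, an inositol trisphosphate receptor of the endoplasmic reticulum, had log2 intensities of 4.88 and 4.28 after 1 hr against 3.22, 3.57 and 3.19 in controls, and 3.43, 3.29 and 3.28 after 2 hr. The 1 hr arrays lay above all others. For the looser condition of both 1 hr arrays above the controls alone the share was 7.54% of all probe sets tested. No share was computed for 1 hr arrays above both other groups. The difference from control was 1.25 (SE 0.312, limma's unadjusted p = 0.00265, adjusted p = 1). The control and 2 hr arrays lay at or near the floor of 3.19, so its size and SE depend on the floor. No other floor was run for the listed genes. The 1 gene at 2 hr was Gucy2e, a membrane guanylyl cyclase, at -1.01 (SE 0.429, limma's adjusted p = 1). The second at 1 hr was Gucy2c, a guanylyl cyclase receptor of the intestine, at 0.73 (SE 0.31). Controls for Gucy2c were also near the floor, at log2 intensities of 3.49, 3.2 and 3.42. These 3 genes were named after their values were seen. The catalytic subunits of protein kinase A, Prkaca and Prkacb, had differences of -0.08 and -0.01 at 2 hr.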

How the data were processed

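The submitters deposited 1 linear signal intensity per probe set and array, 8799 probe sets on each of 8 arrays. Neither scanner software, scaling nor detection calls are stated there. Each array's mean after trimming 2% lay between 150.17 and 150.32, so no further scaling was applied. Correlations between arrays ran from 0.876 to 0.969 and at most 70 values were identical between 2 arrays, so all 8 counted as separate samples. The 59 control probe sets were left out, values were floored at 9.1 and log2 was taken, and 970 probe sets failed the filter. The number of arrays limits the precision.

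Tests used limma 3.58.1 under R 4.3.3 (lmFit, contrasts.fit and eBayes with intensity trend, 1 mean per group, two-sided, Benjamini-Hochberg over 7770 probe sets, threshold 0.05). Any exposure is the mean of the 1 hr and 2 hr means. The lower group of a fold written "at least" lay wholly at the floor.

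Symbols came from the platform annotation, and names and promoters from RefSeq (GRCr8). No coordinates of probe sets are given. Suffixes such as _s_at mark probe sets that may match several transcripts. Members and lists were chosen with earlier results of these data known. By rule, the member of smallest unadjusted p in each family, direction and comparison with control was named, with members parted at 2 hr by at least 0.5 on the log2 scale. Other members were chosen by role, some after their values were seen. Alternatives were another normalization, floor, filter or variance model, array blocks and left-out arrays.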

Additional observations from a re-analysis of the deposited data

Results flagged for a closer look

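Signal appeared on exposed arrays for 2 member probe sets that were left out of the tests because they were above the floor on fewer than 2 arrays. Only exposed arrays were searched for this. Pde5a (U76032_s_at), left out for the same reason, was above the floor on control replicate 3 alone, at 9.6. Gnb3 (L29090cds_at), the beta subunit of cone photoreceptors, read 40.9 on 2 hr replicate 2, against 5.4 and 6.9 on the other 2 hr arrays, 7.5 and 6.6 after 1 hr and 5.5 to 8.3 in controls. Adcy4 (M80633_at), a cyclase not regulated by calcium, read 11.7 and 8.5 after 1 hr, against 2.2 to 4.1 in controls. Neither the Gnb3 nor the Adcy4 signal has a replicate above the floor, and neither was tested.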

How the results depend on the processing

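No member passed in limma in any of the 4 comparisons under any of the 20 planned settings, and none of the pathway genes passed where those were rerun (quantile normalization, replicate block and each array left out). Without the filter on low values 4 probe sets of the whole table, none a member, passed at 1 hr against control and 4 at 2 hr against 1 hr. The member median shift at 2 hr against control ran from 0.02 to 0.19 when single arrays were left out, with the low value without 2 hr replicate 2, and was -0.07 without the 2 arrays of highest striatal marker sum. At 2 hr against 1 hr it ran from 0.02 to 0.21, with the high value without 2 hr replicate 3. The labels number replicates alike across groups. Deviations of control and 2 hr arrays of the same number correlated at 0.11, -0.09 and 0.29. For control and 1 hr arrays the values were -0.33 and 0.2, and for 1 hr and 2 hr arrays -0.07 and 0.15. Arrays of different number were not compared, so these values cannot settle whether the numbers are pairs. The main tests did not take them as pairs. With the number as a replicate block the member median was 0.21 at 2 hr against 1 hr and no member was called.

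Of 716 values of named members under alternatives, 701 kept their direction and 15 reversed, all with an adjusted p of at least 0.941, and the cause was not tested. With the low 5S block Gnb2 at 1 hr was -0.01 and Gnb1 (U88324_at) at 1 hr was 0.27. Without the 3 arrays of highest top value Gng8 (L35921_g_at) at 2 hr was 0.01, and Gng7 (rc_AA925506_s_at) was 0.38 at 1 hr and 0.5 for any exposure. With single arrays left out, Gnb1 (AF022083_s_at) ran from -0.1 to 1.11 at 2 hr and -0.22 to 0.98 for any exposure, and U88324_at from -0.66 to 0.03 at 1 hr. Gng7 ran from -1.44 to 0.16 at 1 hr and -0.57 to 0.23 for any exposure, Gnb2 from -0.21 to 0.54 at 1 hr, Adcy2 from -0.2 to 0.15 for any exposure and Pde4b (J04563_at) from -0.83 to 0.02 at 2 hr. Of 35 named values 27 could be computed with the floor at the 40th percentile (intensity 27.9) and 24 when all 8 arrays had to be above the floor. With the 40th percentile floor Rgs8 (rc_AI144709_s_at) at 1 hr was -0.15, Adcy8 at 1 hr 0.77 and Pde3a at 1 hr -0.75. With the floor at the 5th percentile (intensity 2.4) Pde5a at 2 hr was 1.54 and Gnat3 at 2 hr -1.44.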

Other observations

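Members outside the striatal group also differed widely between arrays of 1 group. Gng11, a gamma subunit of many tissues, read 178.7 on control replicate 3 and 12.6 on control replicate 2, with the exposed arrays between 32.4 and 107.2. Gnb4 read 45.9 on control replicate 2 against 4 on control replicate 3. The Gng5 probe set rc_AI232477_s_at read 639 on control replicate 3 against 161.3 and 163.7 on the other controls. Other members were steady, such as Gnb1 (U88324_g_at), with an SD within groups of 0.18, and Rgs19, with one of 0.23 and intensities between 60.3 and 101.9.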
